A study of Homo sapiens with 6 samples.

Results

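The 30 genes described here make sterols and fatty acids or regulate that synthesis, and they were taken by symbol from a table of 26364 genes. The list follows the sterol response element binding proteins (SREBPs). It holds 21 genes of the sterol side, led by SREBF2, and 9 of the fatty acid side, led by SREBF1. Single-end RNA-seq was made from Calu3, a line of human airway epithelium derived from a lung adenocarcinoma, transfected through RNAiMax with 20 nmol of siRNA. In 3 libraries the siRNA was directed at BRD8, which encodes a bromodomain protein of TIP60/NuA4, a complex that acetylates histones, and 3 libraries received a negative control siRNA. The sources used here name no further treatment and no time after transfection. A single reagent targeted BRD8, so effects of that reagent apart from BRD8 loss cannot be told apart from effects of the loss. The titles name Calu3 for every library, whereas the protocol for RNA extraction speaks of HBE cells. Nothing in the labels says that the libraries of a group came from separate cultures, so each p-value rests on a spread between libraries that may be technical.

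Cells keep their membrane cholesterol within narrow limits through the SREBPs, transcription factors that are made as precursors in the membrane of the endoplasmic reticulum. The escort protein SCAP carries the precursor to the Golgi, where proteases release the active factor, and sterols hold SCAP back by binding it to INSIG1 or INSIG2. SREBP2, the product of SREBF2, acts mainly on the genes of cholesterol synthesis, and SREBP1c, a product of SREBF1, acts mainly on the genes of fatty acid synthesis. Lung epithelium needs both routes for its membranes, and its surfactant-making cells also secrete lipid. RNA-seq measures the transcripts and not the cleavage that activates these proteins.

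BRD8 itself had 1312, 1084 and 1156 normalized counts in BRD8 siRNA libraries, against 2751, 2928 and 3067 in control siRNA libraries. The groups lay far apart, with a log2 fold change of -1.30 (SE 0.0904, limma adjusted p = 1.13e-04). Its exons share 132 bases with those of KIF20A on the opposite strand. A normalized count is the number of reads for a gene divided by a size factor of the library, and the log2 fold change is BRD8 siRNA over control siRNA on log2(value + 1). The libraries held 34427104 to 37896467 reads in the BRD8 siRNA group and 33640814 to 37081766 in the control siRNA group. Of the epithelial markers, 2 of 6 rose (KRT8 and CDH1), where 10.1% of all genes tested rose, and the summed level of the 6 was 419702 to 474094 normalized counts against 314782 to 396692 in control siRNA libraries. Of the markers of basal airway cells, 2 of 3 rose (TP63 and KRT14), with a sum of 821 to 969 against 351 to 525. Most of that sum was KRT14, with a mean of 756 in BRD8 siRNA libraries against 303 in control siRNA libraries. TP63 was low, with means of 27.2 and 13.1 in the same groups. The third marker, KRT5, did not pass the test, at a log2 fold change of -0.06 with groups that overlapped. The leukocyte markers PTPRC, CD3E and CD79A, the endothelial markers PECAM1 and CDH5 and the fibroblast markers COL1A2 and DCN were at 0 or near it in every library. Among the other markers of these types, CD68 and LUM rose, COL1A1 did not pass the test and VWF was too low to test. The part of these markers in the results below was not tested. In a bulk sample, fewer cells making a transcript and less transcript per cell cannot be told apart.

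The transcript of SREBF2, which encodes the main activator of cholesterol synthesis, fell, and it moved further than any other gene of the list. It had 9005, 8655 and 8986 normalized counts in BRD8 siRNA libraries, against 12529, 12620.0 and 12694 in control siRNA libraries. All 3 BRD8 siRNA libraries lay well below all 3 controls, and within each group the values were close together. The mean was 8882 ± 197 in BRD8 siRNA libraries and 12614 ± 82.9 in control siRNA libraries (SD, n = 3 each), a change of -29.6%. The log2 fold change was -0.51 (SE 0.0627, 95% interval -0.65 to -0.36, limma adjusted p = 0.00127). With each library left out in turn it lay between -0.52 and -0.49 and stayed past the threshold. Annotated on the opposite strand is SREBF2-AS1, whose exons share 280 bases with those of SREBF2, and the kit (TruSeq RNA v2) leaves strand unmarked. The microRNA gene MIR33A lies inside SREBF2 and has a row of its own, which held 1 read in all libraries together. The promoter of SREBF2 is shown because the gene leads the list and because SREBP2 is known to act on its own promoter. In RefSeq (GRCh38.p14) the window runs from 250 bases before the start to 50 after it, at chr22:41832855-41833154 on the plus strand. Capitals mark the sterol response element TCACNCCAC, CCAAT and GGGCGG on either strand.
SREBF2 promoter: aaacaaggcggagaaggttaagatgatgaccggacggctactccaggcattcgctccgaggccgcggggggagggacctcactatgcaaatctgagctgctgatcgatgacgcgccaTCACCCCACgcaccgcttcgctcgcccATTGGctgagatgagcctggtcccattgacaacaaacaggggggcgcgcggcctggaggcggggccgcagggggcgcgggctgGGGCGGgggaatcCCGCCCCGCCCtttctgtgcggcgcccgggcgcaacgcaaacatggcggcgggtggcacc
The element TCACCCCAC begins 133 bases before the start, and CCAAT, read as ATTGG on this strand, 106 bases before it. A match of letters is a description and does not show that a factor binds there. The search was for exact letters, so the lack of a match does not show that none binds.

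SREBF1, which encodes SREBP1, had 2031, 2525 and 2319 normalized counts in BRD8 siRNA libraries, against 2043, 2255 and 2212 in control siRNA libraries. The groups overlapped, with the lowest and the highest value both in the BRD8 siRNA group. The log2 fold change was 0.07 with a 95% interval of -0.14 to 0.29 (limma adjusted p = 0.626). The deposited table does not separate its 1a and 1c forms, and 556 bases of its exons are shared with RAI1 on the opposite strand. Its promoter is set beside that of SREBF2 for comparison, from the same source, at chr17:17836937-17837236 on the minus strand, with the same motifs in capitals.
SREBF1 promoter: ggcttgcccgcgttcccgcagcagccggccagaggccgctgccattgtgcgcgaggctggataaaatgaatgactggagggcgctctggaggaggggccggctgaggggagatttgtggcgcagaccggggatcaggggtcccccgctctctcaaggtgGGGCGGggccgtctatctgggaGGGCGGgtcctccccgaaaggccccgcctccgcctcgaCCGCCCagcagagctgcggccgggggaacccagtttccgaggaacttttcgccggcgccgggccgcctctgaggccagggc
This window held 3 copies of GGGCGG and neither TCACNCCAC nor CCAAT. SREBF1 can start at more than 1 promoter, and the window shows 1 of them.

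Per kilobase of transcript, SREBF2 stood above SREBF1 in every library, and less so after BRD8 siRNA. The ratio of SREBF2 to SREBF1, each as normalized counts per kilobase, was 3.51, 2.72 and 3.07 in BRD8 siRNA libraries, against 4.86, 4.44 and 4.55 in control siRNA libraries. The ratios of the groups did not overlap. Their means were 3.10 ± 0.399 in BRD8 siRNA libraries and 4.61 ± 0.220 in control siRNA libraries (SD, n = 3 each). A two-sided exact permutation test gave p = 0.1, which is the smallest that 3 libraries against 3 allow. The ratio is built from the counts of SREBF2 and SREBF1 given above, so it is not a result separate from the fall of SREBF2.

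**Figure D1:**
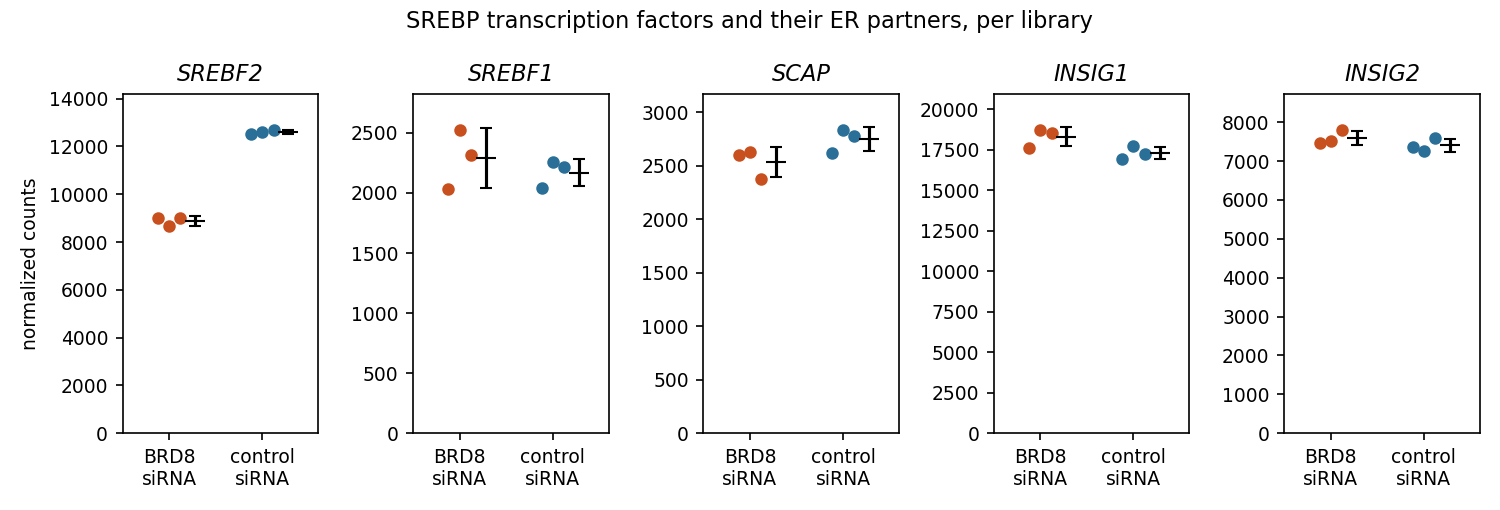
Normalized counts (vertical axis, from 0) of SREBF2, SREBF1, SCAP, INSIG1 and INSIG2, each in its own panel. Points are libraries, BRD8 siRNA left and control siRNA right, and bars are the mean ± SD over 3 libraries. SREBF2 at 8882 against 12614 is the gene whose groups lie apart.

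None of the 3 genes that hold or release the SREBP precursor passed the test. The sterol-sensing escort SCAP had 2604, 2629 and 2378 normalized counts in BRD8 siRNA libraries, against 2622, 2835 and 2783 in control siRNA libraries. Its groups overlapped, and its log2 fold change was -0.12 with a 95% interval of -0.28 to 0.05 (limma adjusted p = 0.322). INSIG1, which retains SCAP and is itself a well-known SREBP target, had 17626, 18720.1 and 18529 normalized counts in BRD8 siRNA libraries, against 16929, 17699 and 17224 in control siRNA libraries. A control value lay among the BRD8 siRNA values, and the log2 fold change was 0.08 with a 95% interval of -0.07 to 0.23 (adjusted p = 0.435). INSIG2, the retention protein less tied to sterol feedback, had 7461, 7525 and 7802 normalized counts in BRD8 siRNA libraries, against 7369.9, 7269 and 7595 in control siRNA libraries. Here too the groups overlapped, with a log2 fold change of 0.04 and a 95% interval of -0.11 to 0.18 (adjusted p = 0.740). The intervals of SCAP, INSIG1 and INSIG2, and that of SREBF1, each lie within 1.25-fold either way. The promoter of INSIG1 is shown as that of a classic SREBP target that did not pass the test. Its window lies at chr7:155297628-155297927 on the plus strand (RefSeq, GRCh38.p14), with TCACGTGA, a palindromic E-box to which SREBP1 can also bind, in capitals beside the motifs named above.
INSIG1 promoter: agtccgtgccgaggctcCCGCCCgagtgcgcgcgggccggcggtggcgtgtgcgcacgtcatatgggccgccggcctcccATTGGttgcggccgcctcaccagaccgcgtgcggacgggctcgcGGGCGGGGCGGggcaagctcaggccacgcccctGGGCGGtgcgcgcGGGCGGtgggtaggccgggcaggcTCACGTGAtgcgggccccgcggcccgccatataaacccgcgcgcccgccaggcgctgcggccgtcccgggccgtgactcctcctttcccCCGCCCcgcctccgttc
The E-box begins 56 bases before the start and CCAAT, again as ATTGG, 170 bases before it.

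Over the whole list, 1 gene rose and 5 fell of the 30, all of which were abundant enough to be tested. That is 20.0% of the list, where 19.0% of the 15354 genes tested passed the same limma threshold, an adjusted p under 0.05. The share of changed genes was therefore near the background and is not a result about the list. By direction, 10.1% of all genes tested rose and 8.93% fell. The groups did not overlap for 10 of the 30 genes, 2 higher and 8 lower in BRD8 siRNA libraries, where 36.8% of all genes tested had such groups. The median log2 fold change was -0.05, against -0.01 over all genes tested, and 18 of the 30 values were negative. For 15 of the 30 the size of the log2 fold change was 0.1 or less, as for 28.8% of all genes tested. For 16 of the 30 the 95% interval lay within 1.25-fold either way, as for 22.7% of all genes tested. These genes are more abundant than most, with a median level of 8028 normalized counts against 708 for all genes tested. The median distance from a log2 fold change to the end of its interval was 0.19, against 0.26 for all genes tested. The part of abundance in this difference was not tested. Exons of 12 of the 30 genes overlap those of another gene on the opposite strand, mostly antisense transcripts, and such reads cannot be told apart.

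**Figure D2:**
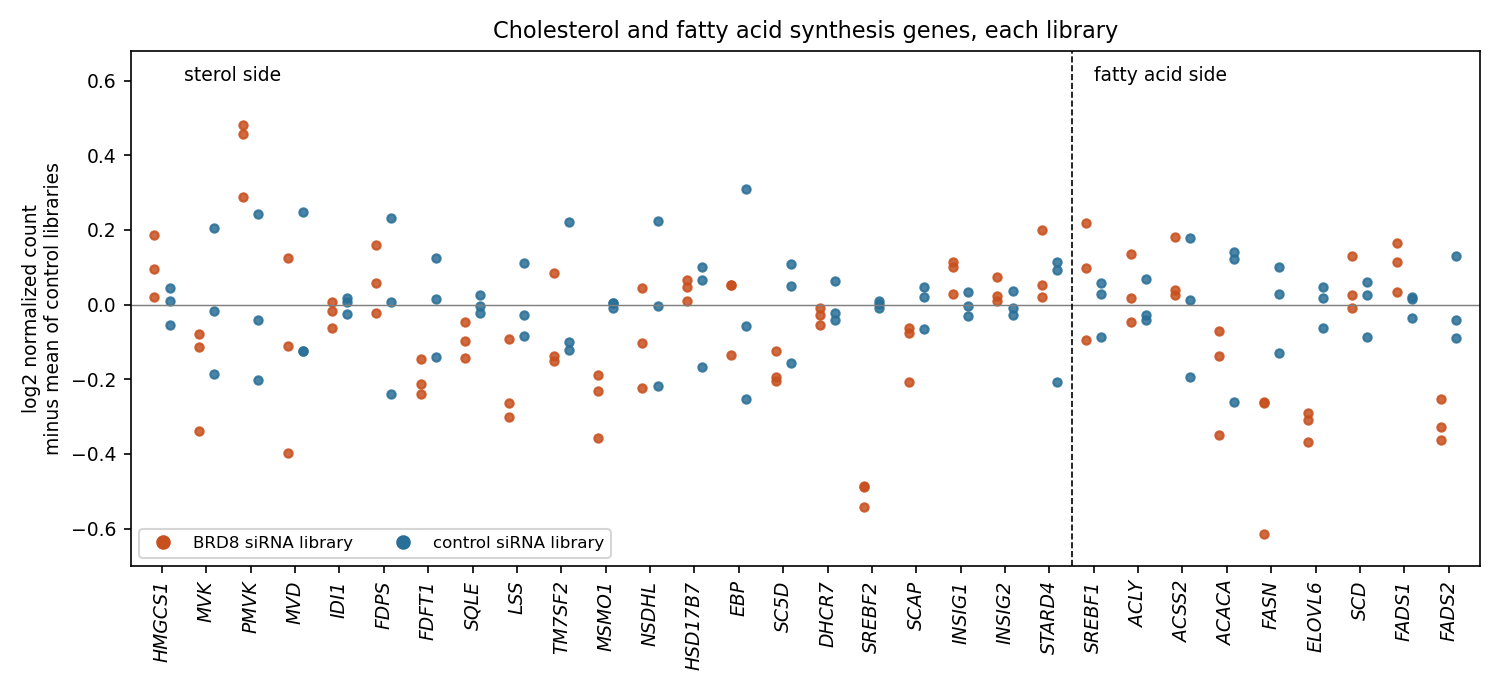
Each of the 30 genes in each library, as log2 normalized count minus the mean of the control siRNA libraries (vertical axis). Orange points are BRD8 siRNA libraries and lie left of the blue control siRNA points, and the dashed line parts the sterol from the fatty acid side. SREBF2, MSMO1, FASN, ELOVL6, FADS2, FDFT1, SQLE and LSS have all orange points below all blue ones, and PMVK and FADS1 have them above.

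The number of list genes that passed moved with single libraries. Leaving out BRD8 siRNA library 1 left 2, where 12.9% of all genes tested were called, and leaving out BRD8 siRNA library 2 or 3 left 1, where 10.2% were called in either case. Leaving out control library 1 left 3, where 12.2% of all genes tested were called, and leaving out control library 3 left 1, where 8.86% were. Leaving out control library 2 gave 8, where 34.0% of all genes tested were called, and the genes gained on the list were SC5D and ACACA, both lower. SREBF2 passed in each of these fits. On the reads recovered from the normalized counts, edgeR called the same 6 genes of the list, where it called 19.3% of all genes tested.

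On the sterol side, 1 of 21 genes rose (PMVK), 2 fell (SREBF2 and MSMO1) and 18 did not pass the test. That is 14.3% called, below the 19.0% of all genes tested. With the trend on length and GC content removed, 2 rose and 8 fell, where 16.1% of all genes tested rose and 19.4% fell. The median log2 fold change of the side was -0.07. Its genes together took 0.660%, 0.670% and 0.677% of the reads in BRD8 siRNA libraries, against 0.683%, 0.706% and 0.702% in control siRNA libraries. Those shares did not overlap, although the means of 0.669% ± 0.00853 in BRD8 siRNA libraries and 0.697% ± 0.0122 in control siRNA libraries (SD, n = 3 each) were close. As summed normalized counts, the groups of the side did overlap. The sums were 236326, 240883 and 241630 in BRD8 siRNA libraries, against 240135, 256506 and 250266 in control siRNA libraries. Both measures include SREBF2 itself.

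The mevalonate branch turns acetyl-CoA units into the isoprenoids from which squalene is built, and of its 6 listed enzymes only PMVK passed the test. PMVK, phosphomevalonate kinase, had 2092, 2126 and 1861 normalized counts in BRD8 siRNA libraries, against 1325, 1802 and 1482 in control siRNA libraries. All BRD8 siRNA values lay above all controls, by a narrow margin over control library 2. The mean was 2026 ± 144 in BRD8 siRNA libraries and 1536 ± 243 in control siRNA libraries (SD, n = 3 each), with a log2 fold change of 0.41 (SE 0.117, limma adjusted p = 0.0407). The call held without control library 2 and was lost without each other library, at adjusted p = 0.117, 0.130 and 0.0667 without BRD8 siRNA libraries 1, 2 and 3, and at 0.115 and 0.139 without control libraries 1 and 3. HMGCS1, which forms HMG-CoA at the head of the branch, was its most abundant listed gene, with 49095, 51723 and 55154 normalized counts in BRD8 siRNA libraries, against 48776, 46620.2 and 49963 in control siRNA libraries. The values of HMGCS1 overlapped, with a log2 fold change of 0.10 and a 95% interval of -0.07 to 0.27. IDI1, the isomerase that makes dimethylallyl diphosphate, had a log2 fold change of -0.02 (95% interval -0.17 to 0.12), and its groups overlapped. The other enzymes were MVK, mevalonate kinase, at -0.18, the decarboxylase MVD at -0.13 and the farnesyl diphosphate synthase FDPS at 0.07, on the same scale. Control libraries spread widely for MVD and FDPS, and counts of FDPS are reported as uncertain, since it is known to have pseudogene copies and how shared reads were assigned is not given in the sources used here.

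Of the 10 enzymes that carry farnesyl units to squalene and on to cholesterol, MSMO1 fell and the other 9 did not pass the test. MSMO1, the oxidase that removes methyl groups from carbon 4 of the sterol ring, had 13426, 14659.5 and 15096 normalized counts in BRD8 siRNA libraries, against 17267, 17245 and 17103 in control siRNA libraries. The control values of MSMO1 were nearly equal and all above the BRD8 siRNA values. The log2 fold change was -0.26 (SE 0.0707, 95% interval -0.42 to -0.10, limma adjusted p = 0.0346). The call held without control library 2 and was lost without each other library, at adjusted p = 0.111, 0.102 and 0.0722 without BRD8 siRNA libraries 1, 2 and 3 and at 0.0821 and 0.127 without control libraries 1 and 3. It was also lost when no filter on low genes was used, at adjusted p = 0.0572. The promoter of MSMO1 is shown as that of the sterol enzyme that fell, at chr4:165327419-165327718 on the plus strand (RefSeq, GRCh38.p14), with the same motifs in capitals.
MSMO1 promoter: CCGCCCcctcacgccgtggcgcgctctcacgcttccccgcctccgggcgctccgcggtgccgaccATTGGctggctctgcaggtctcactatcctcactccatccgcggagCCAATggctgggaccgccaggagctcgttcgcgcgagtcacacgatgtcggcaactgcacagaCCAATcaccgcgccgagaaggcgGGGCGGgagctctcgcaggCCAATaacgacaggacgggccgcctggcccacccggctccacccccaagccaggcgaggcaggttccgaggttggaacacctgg
It held 4 copies of CCAAT, counting both strands, and no exact match to TCACNCCAC.

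The groups also lay apart for 3 further enzymes of this branch, lower in BRD8 siRNA libraries in each case, though none passed the test. With MSMO1 that is 4 of the 10. Of all genes tested, 36.8% had groups that did not overlap, and 17.9% had them lower in BRD8 siRNA libraries. Squalene synthase, FDFT1, had 25029.7, 23899 and 23423 normalized counts in BRD8 siRNA libraries, against 25086, 30186 and 27979 in control siRNA libraries (log2 fold change -0.20, limma adjusted p = 0.136). Its highest BRD8 siRNA value was all but equal to the lowest control. Squalene epoxidase, SQLE, a rate-limiting step after squalene, had 20444, 21089 and 21871 normalized counts in BRD8 siRNA libraries, against 22535, 22239 and 22978 in control siRNA libraries (log2 fold change -0.10, adjusted p = 0.352). Lanosterol synthase, LSS, which closes the ring system, had 8209.8, 7297 and 7108 normalized counts in BRD8 siRNA libraries, against 8261, 9464 and 8596 in control siRNA libraries (log2 fold change -0.22, adjusted p = 0.106). For LSS as for FDFT1, the gap between the groups was small next to the spread within them. The remaining 6 enzymes had overlapping groups. Their log2 fold changes were -0.17 for the desaturase SC5D, -0.09 for the decarboxylating dehydrogenase NSDHL, -0.07 for the C14 sterol reductase TM7SF2, -0.03 for the last reductase DHCR7, -0.01 for the isomerase EBP and 0.04 for the ketoreductase HSD17B7. Thus 9 of the 10 values were negative, as were those of 7983 of the 15354 genes tested. The 10 genes together took 0.296%, 0.294% and 0.292% of the reads in BRD8 siRNA libraries, against 0.313%, 0.337% and 0.324% in control siRNA libraries. HSD17B7, too, is known to have a pseudogene copy, and its counts are reported as uncertain for the same reason, which was not tested. STARD4, which moves cholesterol between membranes, had 7736, 7904 and 8766 normalized counts in BRD8 siRNA libraries, against 8257, 6611 and 8125 in control siRNA libraries. The groups of STARD4 overlapped, at a log2 fold change of 0.09.

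**Figure D3:**
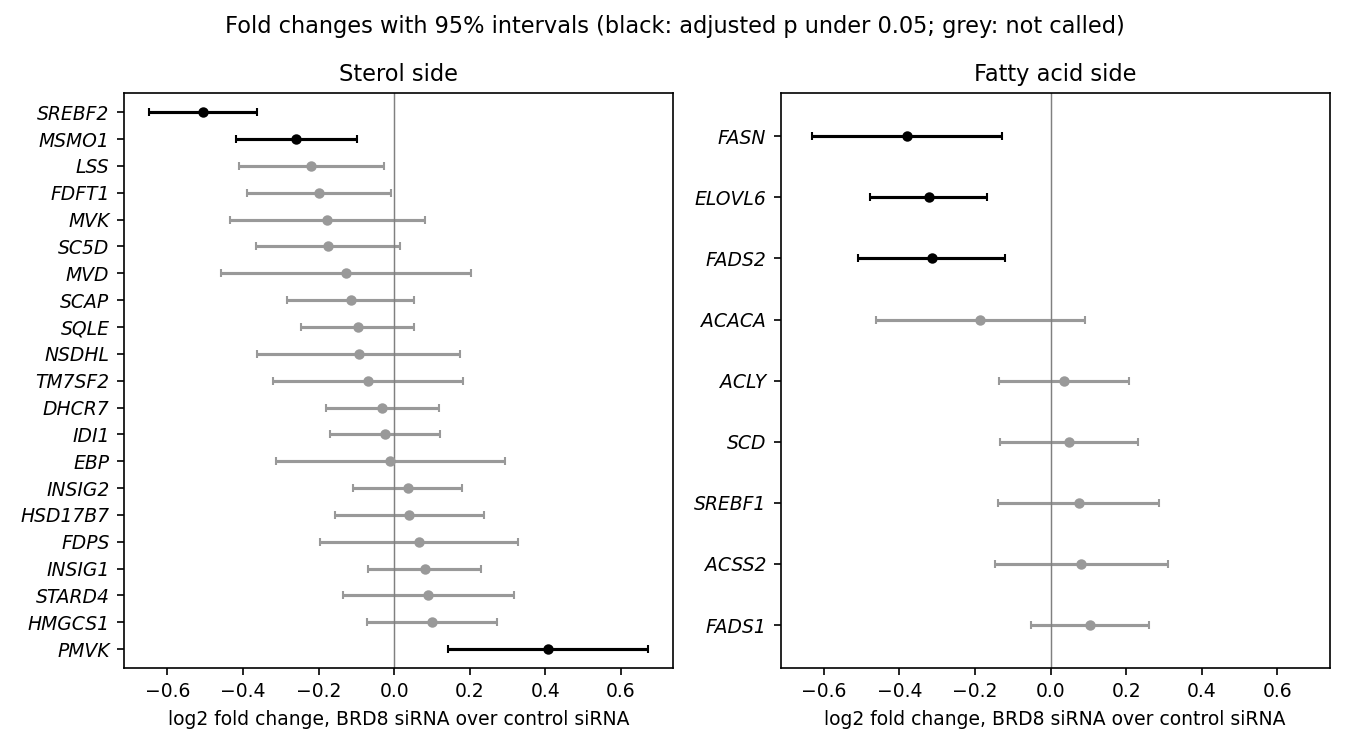
Log2 fold change of each gene, BRD8 siRNA over control siRNA (horizontal axis), with its 95% interval, sterol side left and fatty acid side right. Genes are ordered from the lowest value at the top to the highest at the bottom. Black marks genes with an adjusted p under 0.05 and grey the others. SREBF2 has the lowest value, -0.51, and PMVK the highest, 0.41.

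On the fatty acid side, 3 of 9 genes fell (FASN, ELOVL6 and FADS2), none rose and 6 did not pass the test, where 8.93% of all genes tested fell and 19.0% were called in either direction. The median log2 fold change of the side was 0.04. The count of lower genes was 1 without BRD8 siRNA library 1, where 12.9% of all genes tested were called in either direction, and 0 without BRD8 siRNA library 2 or 3, where 10.2% were. It was 0 without control library 3 (8.86% of all genes called), 2 without control library 1 (12.2%) and 4 without control library 2 (34.0%).

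Acetyl-CoA for the route comes from ACLY, ATP citrate lyase, and ACSS2, acetyl-CoA synthetase, with log2 fold changes of 0.04 and 0.08 and groups that overlapped. ACACA, acetyl-CoA carboxylase, makes malonyl-CoA in the committed step. It had 16176, 13336 and 15453 normalized counts in BRD8 siRNA libraries, against 18503, 14174 and 18727 in control siRNA libraries. Control library 2 was low among the controls of ACACA and lay among the BRD8 siRNA values, and the log2 fold change was -0.19 (limma adjusted p = 0.327). FASN, fatty acid synthase, builds palmitate from malonyl-CoA. It had 16831, 21481 and 21449 normalized counts in BRD8 siRNA libraries, against 27629.7, 23529 and 26279.7 in control siRNA libraries. Every BRD8 siRNA value of FASN lay below every control, with BRD8 siRNA library 1 the lowest. The log2 fold change was -0.38 (SE 0.111, 95% interval -0.63 to -0.13, adjusted p = 0.0436). The call of FASN was lost at adjusted p = 0.112, 0.0663 and 0.0711 without BRD8 siRNA libraries 1, 2 and 3, at 0.119 and 0.146 without control libraries 1 and 3, and at 0.0589 with no filter on low genes.

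ELOVL6 extends palmitate to stearate. It had 3231, 3184 and 3061 normalized counts in BRD8 siRNA libraries, against 3996, 3778 and 4079 in control siRNA libraries. The groups of ELOVL6 were clearly apart, with a log2 fold change of -0.32 (SE 0.0683, 95% interval -0.48 to -0.17, limma adjusted p = 0.0126). The call was lost at adjusted p = 0.0517 and 0.0668 without BRD8 siRNA libraries 2 and 3 and at 0.0775 without control library 3. FADS2, the delta-6 desaturase at the entry to polyunsaturated fatty acid synthesis, had 868, 913 and 847 normalized counts in BRD8 siRNA libraries, against 1024, 1191 and 1059 in control siRNA libraries. Its BRD8 siRNA values also all lay below the controls, with a log2 fold change of -0.31 (SE 0.0858, adjusted p = 0.0347). The call of FADS2 was lost at adjusted p = 0.0903, 0.0755 and 0.126 without BRD8 siRNA libraries 1, 2 and 3 and at 0.102 without control library 3. FADS1, the delta-5 desaturase encoded next to it, had 5050.4, 4607 and 4872 normalized counts in BRD8 siRNA libraries, against 4551, 4389 and 4567 in control siRNA libraries. Here the BRD8 siRNA values all lay above the controls, but the log2 fold change of 0.10 did not pass the test (95% interval -0.05 to 0.26, adjusted p = 0.327). The exons of FADS1 and FADS2 share 490 bases on opposite strands, and reads there cannot be told apart.

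SCD, the delta-9 desaturase that makes oleate, was the most abundant gene of the list per kilobase of transcript. It had 105181, 102682 and 113232 normalized counts in BRD8 siRNA libraries, against 105199.7, 97366 and 107902 in control siRNA libraries. The groups of SCD overlapped, with a log2 fold change of 0.05 and a 95% interval of -0.13 to 0.23. Per kilobase, SCD reached 19961 normalized counts in BRD8 siRNA libraries and 19300.4 in control siRNA libraries, followed by HMGCS1 with 14829 and 13820.0 in the same groups. FADS2 was lowest per kilobase in both groups, with 241 in BRD8 siRNA libraries and 301 in control siRNA libraries. The next lowest was ELOVL6 in BRD8 siRNA libraries, with 489 against 612 in control siRNA libraries, and SREBF1 in control siRNA libraries, with 539 in BRD8 siRNA libraries and 510.3 in control siRNA libraries. SREBF2 stood between these ends, at 1656 per kilobase in BRD8 siRNA libraries and 2351 in control siRNA libraries. The 9 genes together took 0.494%, 0.482% and 0.523% of the reads in BRD8 siRNA libraries, against 0.530%, 0.474% and 0.535% in control siRNA libraries. SCD alone held most of that sum, and the shares overlapped.

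Beyond the list, 54 further genes of sterol and fatty acid metabolism were abundant enough to be tested, of which 6 rose and 7 fell. That is 24.1% called, near the 19.0% of all genes tested. Among 10 genes of SREBP processing, which include the site-1 and site-2 proteases MBTPS1 and MBTPS2, none passed the limma test. Of these 10 genes, 2 had an unadjusted p under 0.05, as had 33.1% of all genes tested. They were C12orf49 (also named SPRING1), a partner of SCAP and the site-1 protease, at a log2 fold change of -0.24 (adjusted p = 0.0671), and the ubiquitin ligase RNF139 at 0.20 (adjusted p = 0.0752), both chosen after their values were seen. Among 13 genes of sterol traffic and of the LXR receptors, LIPA fell. LIPA, the lysosomal acid lipase that frees cholesterol from its esters, had 5853, 5537 and 5834 normalized counts in BRD8 siRNA libraries, against 7469, 7212 and 7353 in control siRNA libraries. The groups of LIPA did not overlap, at a log2 fold change of -0.36 (SE 0.0646, adjusted p = 0.00665). Exons of LIPA overlap those of IFIT2 on the opposite strand. Among 8 other genes of sterol synthesis, 2 of the isoprenoid branch rose, again named after their values were seen. They were GGPS1, geranylgeranyl diphosphate synthase, at 0.28 (adjusted p = 0.0205), and DHDDS, which makes dolichol chains, at 0.29 (adjusted p = 0.0412). Exons of GGPS1 share 1422 bases, 37.3% of their length, with those of TBCE on the same strand, and 138 bases with those of ARID4B on the opposite strand.

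Most calls outside the list were among fatty acid genes, where 4 rose and 6 fell of 23 tested, against 10.1% higher and 8.93% lower over all genes tested. ELOVL5, which extends polyunsaturated fatty acids, had 4303, 4085 and 4323 normalized counts in BRD8 siRNA libraries, against 6889, 6411 and 6909 in control siRNA libraries. That was a wide gap between 2 tight groups, with a log2 fold change of -0.67 (SE 0.0684, limma adjusted p = 5.75e-04), and the call held without any single library. ME1, malic enzyme, which supplies NADPH, had 587, 486 and 543 normalized counts in BRD8 siRNA libraries, against 780.0, 816 and 992 in control siRNA libraries. Its groups lay apart as well, with a log2 fold change of -0.67 (SE 0.116, adjusted p = 0.00525). GPAM, the first acyltransferase of triglyceride synthesis, fell with a log2 fold change of -0.49 (adjusted p = 0.0118), and ACACB, the mitochondrial acetyl-CoA carboxylase, fell with -0.53 (adjusted p = 0.0232). ACSL5, an acyl-CoA synthetase, rose with 0.34 (adjusted p = 0.0293). The calls of ACACB and ACSL5 are named after their values were seen.

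Elongation adds carbons to a fatty acid in a cycle of condensation, reduction, dehydration and reduction, and genes of this cycle moved in different directions. Of 8 such genes tested, ELOVL6 included, 4 fell, 1 rose and 3 did not pass the test, in a grouping made after the values were seen. Over all genes tested 19.0% were called, with 8.93% lower, and nothing is read from a share in a group so chosen. Beside ELOVL5 and ELOVL6, the ketoacyl reductase HSD17B12 fell with a log2 fold change of -0.38 (limma adjusted p = 0.00900) and the dehydratase HACD3 with -0.32 (adjusted p = 0.0111). HSD17B12 had 6460.2, 6811 and 7003 normalized counts in BRD8 siRNA libraries, against 8924, 8204 and 9235 in control siRNA libraries. HACD3 had 5024, 5082 and 5281 normalized counts in BRD8 siRNA libraries, against 6613, 6163 and 6478 in control siRNA libraries. For both enzymes every BRD8 siRNA value lay below every control. Exons of HSD17B12 share 948 bases, 12.1% of their length, with those of AC087521.2 on the opposite strand. They share 289 bases with AC087521.4, also on the opposite strand, and 490 bases with AC068205.2 on the same strand. ELOVL7 rose, at 0.38 (adjusted p = 0.0322), and ELOVL1 had 0.31 (adjusted p = 0.0595). HACD2 and TECR had values of 0.03 and 0.01, with groups that overlapped. Of 5 desaturase genes, grouped in the same way and read against the same shares, FADS2 fell while SCD5 and FADS3 rose. SCD5 had 3061, 3102 and 3223 normalized counts in BRD8 siRNA libraries, against 2616, 2469 and 2591 in control siRNA libraries (log2 fold change 0.29, adjusted p = 0.0186). FADS3, whose gene neighbours FADS1 and FADS2, had 1132, 1214 and 1094 normalized counts in BRD8 siRNA libraries, against 721, 925 and 710.4 in control siRNA libraries (log2 fold change 0.55, adjusted p = 0.0107). For SCD5 and FADS3 every BRD8 siRNA value lay above every control.

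**Figure D4:**
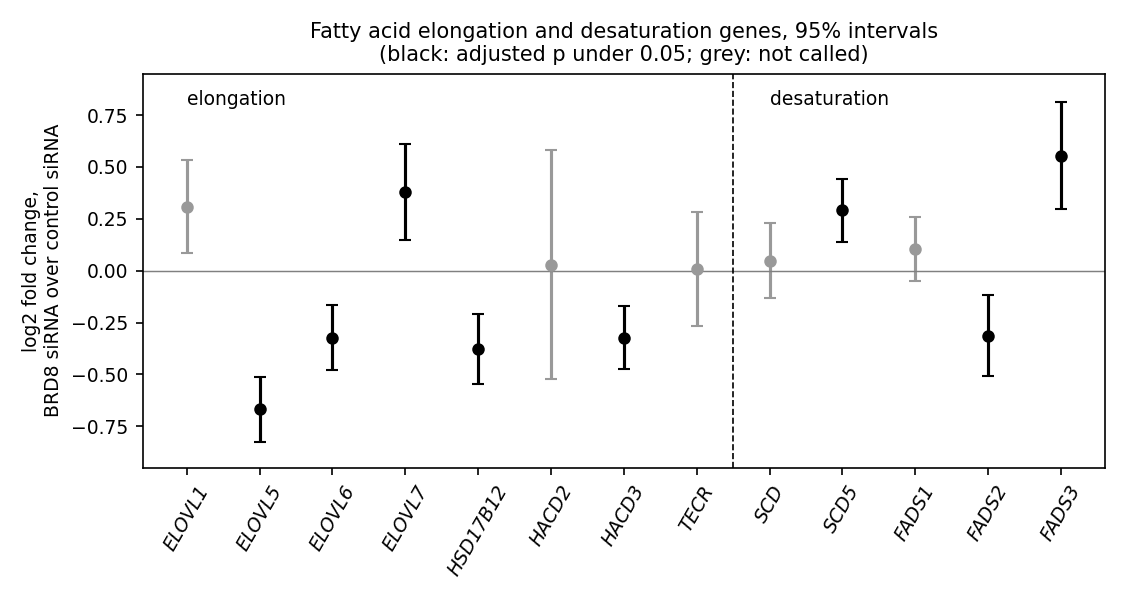
Log2 fold change, BRD8 siRNA over control siRNA (vertical axis), with 95% intervals for 8 elongation genes and 5 desaturase genes. Black marks an adjusted p under 0.05 and grey the others. ELOVL5 lies lowest at -0.67 and FADS3 highest at 0.55.

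Some of these calls were lost when a single library was left out. Without control library 3 the adjusted p was 0.0651 for HACD3, 0.0567 for GPAM, 0.0579 for HSD17B12, 0.0543 for FADS3 and 0.0785 for SCD5. Without BRD8 siRNA library 2 it was 0.0550 for HACD3, 0.0521 for GPAM and 0.0699 for SCD5, and without BRD8 siRNA library 3 it was 0.0886 for SCD5. The calls of GGPS1, ACACB and DHDDS held only without control library 2, and were lost without each other library at adjusted p-values of 0.0551 to 0.0850 for GGPS1, 0.0526 to 0.110 for ACACB and 0.0919 to 0.172 for DHDDS. With no filter on low genes the adjusted p of DHDDS was 0.0539. The call of ACSL5 held without control library 2 and without control library 3, and that of ELOVL7 without control library 1 and without control library 2. The other libraries, left out singly, gave 0.0693 to 0.0984 for ACSL5 and 0.0667 to 0.120 for ELOVL7. The calls of ELOVL5, ME1 and LIPA held whichever library was left out. Over the 54 genes, the number that rose was 2, 1 and 1 without BRD8 siRNA libraries 1, 2 and 3, and 3, 11 and 1 without control libraries 1, 2 and 3. The number that fell was 6, 4 and 6 without BRD8 siRNA libraries 1, 2 and 3, and 7, 11 and 3 without control libraries 1, 2 and 3. In the same fits 12.9%, 10.2% and 10.2% of all genes tested were called without BRD8 siRNA libraries 1, 2 and 3, and 12.2%, 34.0% and 8.86% without control libraries 1, 2 and 3.

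Control library 2 stood apart from the other libraries along the second principal component, which held 20.6% of the variance, and its values on the list moved with transcript length. It was the highest of the controls for 17 of the 30 genes and the lowest for 10. Among the 10 shortest transcripts, up to 2590 bases, control library 2 lay above the mean of the other controls for 8, with a median log2 ratio of 0.33. Among the 10 longest, from 4339 bases, it lay above for 3, with a median of -0.08. Spearman's rho between this log2 ratio and length was -0.69 over the 30 genes, -0.60 over the 21 of the sterol side and -0.98 over the 9 of the fatty acid side, against -0.55 over 14825 genes tested with a known length. These are descriptions across genes that share 3 libraries. The ratio was 0.36 for PMVK, -0.20 for FASN, -0.39 for ACACA and 0.00 for SREBF2. With the trend on length and GC content removed from each library, 13 of the 30 genes passed the test, 2 higher and 11 lower, where 35.5% of all genes tested did (16.1% higher and 19.4% lower). The genes gained were MVK, MVD, FDFT1, LSS, TM7SF2 and SC5D, lower, and STARD4, higher. The part of library quality in these values was not tested.

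**Figure D5:**
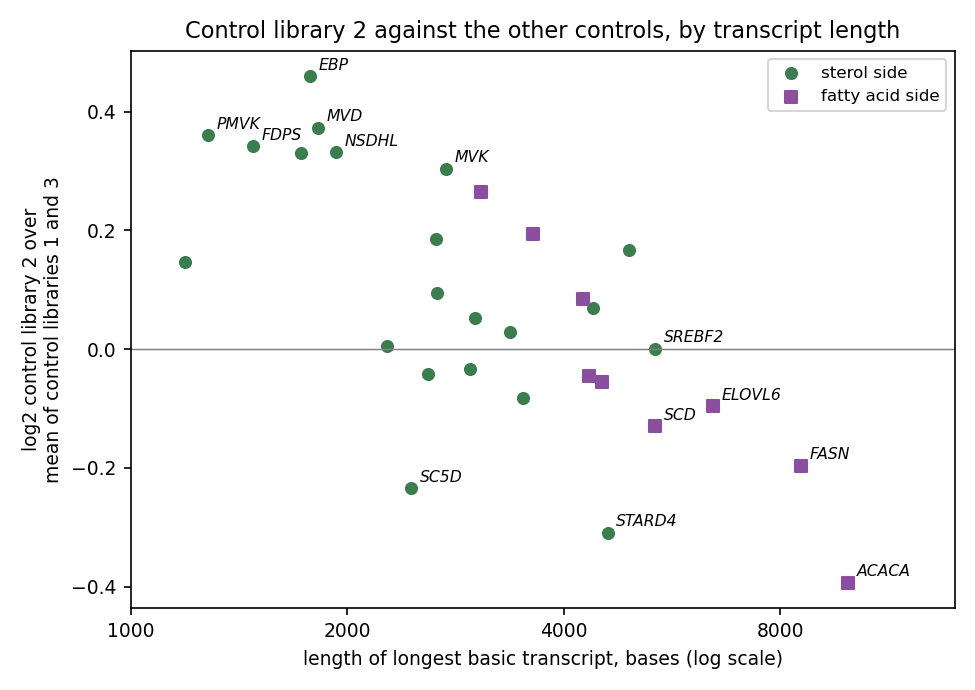
Log2 ratio of control library 2 to the mean of control libraries 1 and 3 (vertical axis) against the length of the longest basic transcript in bases (horizontal axis, log scale) for the 30 genes. Circles are sterol genes and squares fatty acid genes. EBP at 0.46 is highest and ACACA at -0.39 lowest.

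Promoter windows of the same kind were found for 27 of the 30 genes in RefSeq, and not for FASN, FDFT1 and SQLE. TCACNCCAC occurred in 1 of the 27 (SREBF2), against 1.45% of 10999 tested genes with a window, and TCACGTGA in 1 of the 27 (INSIG1), against 2.07%. CCAAT, the motif of the factor NF-Y that often works beside SREBP, occurred in 21 of the 27, or 77.8%, against 42.8% of tested genes. It was found in 16 of 19 windows of the sterol side and in 5 of 8 of the fatty acid side. GGGCGG, the GC box bound by Sp1, occurred in 26 of the 27, or 96.3%, against 74.0%. Both strands were searched, a gene counted if any of its windows held the motif, and in the windows of these genes no match overlapped a different motif. MSMO1, which fell, and INSIG1, which did not pass the test, both held CCAAT.

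The authors' deposited table gives its own comparison for the 30 genes, in which 6 have an adjusted p under 0.05, where 20.4% of the genes given one do. None of the 30 carries the authors' call of a changed gene, which asks for a minimum fold and for an adjusted p stricter than 0.05. Of the 30, 2 (SREBF2 and ELOVL6) have an adjusted p under 0.005 in that comparison. In the authors' deposited table SREBF2 stands at -0.51 on the log2 scale, with a standard error of 0.0704 and an adjusted p of 4.79e-11.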

How the data were processed

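Counts per gene from 6 libraries were aligned with STAR 2.6 and counted with featureCounts 1.6.3, on build hg19, per the submitters' processing notes, which also name DESeq2 1.22.1. The sources used here give no strand setting. The table's deposited expression values are a normalized signal, counts divided by a size factor per library. The authors also deposited p-values and, as score columns, a mean, a fold change on the log2 scale with its standard error, and a test statistic. Each of the 6 value columns was tied to a library by its name.

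Whole reads were recovered for 100% of values within 0.01. A floor of 3 reads corresponded to 2.84 to 3.24 normalized counts and covers counting error only. On these reads edgeR 4.0.16 called 2969 genes. The main test was limma 3.58.1 (R 4.3.3), fitted with a mean-variance trend to log2(value + 1), which understates the change of low genes. It covered 15354 genes with a mean of at least 10, treatment alone was in the design, and p-values were adjusted by Benjamini and Hochberg at 0.05. Intervals are 95%. Gene length and GC content came from GENCODE v29, where 23748 symbols matched directly and 727 by another symbol. The bases that exons share come from it too. Its build differs from that of the data, and none of its coordinates is printed. Fits were tested on simulated data.

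The genes of the list and the further lists were chosen with earlier results of these data known. By rule, the genes given in full are the called genes, both SREBF genes, SCAP, both INSIG genes, BRD8 and the 8 further pathway genes with the smallest adjusted p.

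Alternatives covered scaling, pseudocount, filter, DESeq2 1.42.0, a replicate block, a length and GC correction and leaving out each library.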

Additional observations from a re-analysis of the deposited data

How the results depend on the processing

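No called gene or SREBP regulator changed the sign of its log2 fold change under any alternative tried. The median log2 fold change of the list ranged from -0.11 with the length and GC trend removed to -0.00 without control library 2, and that of the sterol side from -0.13 to -0.00 under the same alternatives. The counts of genes that fell or rose kept within 1.5 times under the other scalings, pseudocounts, the filter at a mean of at least 50, edgeR, DESeq2 and the authors' deposited table, except those given here. With no filter on low genes 1 sterol gene was lower, against 2. With the trend on length and GC content removed, 5257 genes were called, against 2920, 2 sterol genes were higher and 8 lower, and 11 further pathway genes were higher and 11 lower, against 6 and 7. Leaving out single libraries gave 1361 to 5226 genes called in all, 0 to 1 sterol genes higher, 1 to 3 sterol genes lower, 0 to 4 fatty acid genes lower, and 1 to 11 further pathway genes higher and 3 to 11 lower. The fewest genes were called without control library 3 and the most without control library 2. An arm with 2 libraries shares its spread with the other arm in that fit. The causes of these shifts were not tested.

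The replicate numbers occur in both groups, but same-numbered libraries did not all deviate together (r = -0.08, 0.34 and 0.15 for numbers 1, 2 and 3), and not every library correlated best with its own number. With the number as a replicate block 3901 genes were called, and the counts on the list were the same as without the block: sterol 1 higher and 2 lower, fatty acid 0 higher and 3 lower. The further pathway genes were then 8 higher and 8 lower.

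Depth limits no gene of the list, since the lowest, FADS2, had 847 normalized counts or more in every library.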
